A study of Mus musculus with 24 samples.

Results

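The comparison described here sets BKO408 cells carrying a LAP retrovirus (4 samples, called LAP samples 1 to 4 from their labels) against BKO408 cells without LAP (4 samples, called control samples 1 to 4). These are 8 of the 24 arrays of the series, and they were chosen by their titles alone. BKO408 is a cell line of acute lymphoblastic leukaemia of precursor B cells (preB-ALL) that arose in a Blnk knockout mouse, so both groups lack the adaptor Blnk and differ, by the labels, only in the LAP virus. All cells were grown in RPMI1640 with interleukin-7 (IL-7) at 5 ng/ml and fetal bovine serum at 10%, and biotinylated cRNA was made from 100 ng of total RNA. The labels name no control virus, no time after transduction and no number of clones or of transduced cells, and the labels do not say whether the 4 samples of a group were separate cultures, so p-values measure only the spread between these samples. The other 16 arrays are primary leukaemias, of which 3 LAP/Blnk preB-ALL and 5 Blnk preB-ALL are used below for one comparison.

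LAP is the long, activating form of C/EBPβ, a basic leucine-zipper transcription factor encoded by Cebpb. C/EBP factors bind DNA as dimers and drive genes of granulocytes and macrophages, and their forced expression can turn B-lineage precursors into macrophage-like cells. Pre-B cells depend on IL-7 for growth, on Rag1 and Rag2 for rearrangement of the immunoglobulin genes, on Dntt for adding bases at the joins, and on Blnk to pass the signal of the pre-B receptor to Irf4 and other regulators that end the growth phase.

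Every value below is a log2 ratio to the median that the same probe set had over all 8 BKO408 arrays. A control sample at -1 and a LAP sample at 1 therefore differ by 2, which is 4-fold, and no level of expression was kept, so neither the abundance of a transcript nor its absence can be read. The labels leave the base of these logarithms unstated, and it was taken as 2. Differences are LAP minus control with the standard error (SE) of limma's moderated test, n = 4 and 4 throughout, and a gene passed when its p adjusted over all 17097 genes was under 0.05. In these bulk samples fewer cells that express a gene and less RNA per cell cannot be told apart.

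The changes were many and mostly small. Of 17097 genes 3820 passed (22.3%), 1801 higher with LAP (10.5%) and 2019 lower (11.8%), and 724 of the 3820 (19.0%) differed by at least 1.25-fold. At least 1.5-fold differences were held by 171 genes (73 higher, 98 lower), at least 2-fold by 47 (28 higher, 19 lower; 0.275% of the genes tested) and at least 4-fold by 6 (5 higher, 1 lower). The median size of a difference was 0.194 in the genes that passed and 0.0635 in all genes, and the median of all genes was -0.0146. The groups did not overlap in 4578 genes (26.8%) and in all 47 genes with at least a 2-fold difference. The median SD of a gene was 0.0602 among control samples and 0.0502 among LAP samples. The plot of difference against adjusted p places the genes named below among all genes.

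**Figure D1:**
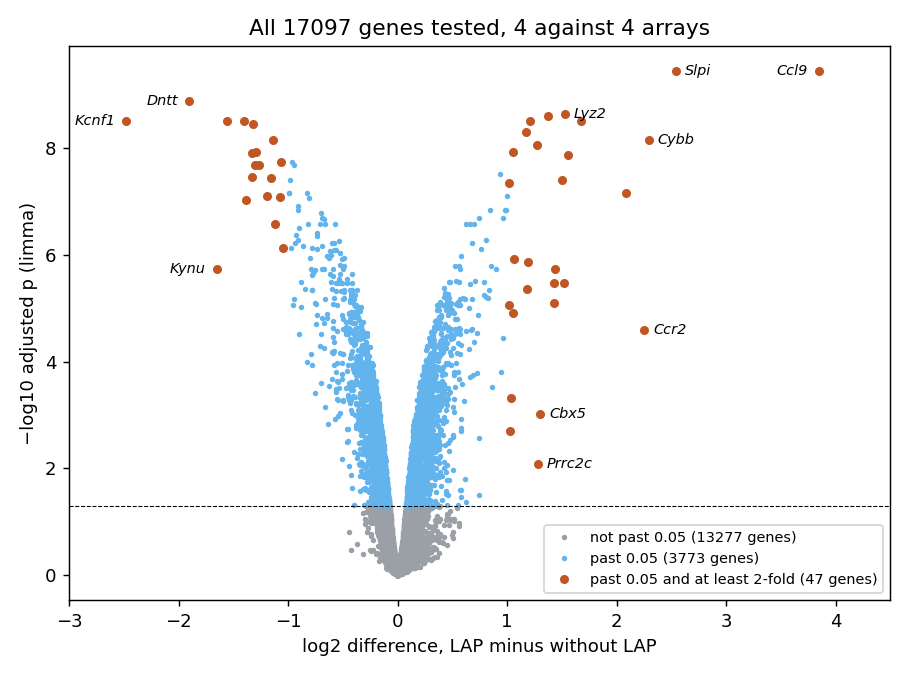
Each point is 1 of 17097 genes, with the log2 difference (LAP minus control, 4 against 4 samples) on the horizontal axis and −log10 of the limma adjusted p on the vertical axis; the dashed line is the threshold of 0.05. Orange points are the 47 genes with at least a 2-fold difference; Ccl9 (3.85) and Kcnf1 (-2.48) lie farthest out, while Prrc2c, Cbx5 and Ccr2 have large differences with larger p than their neighbours.

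The targeted gene was read first, as a check of the labels. Cebpb has 3 probe sets on the array, and none of them separated the groups. The third probe set, which stood for Cebpb in the test over all genes, was at -0.14, 0.01, -0.05 and -0.06 in control samples 1 to 4 and at 0.11, 0.24, 0.03 and -0.01 in LAP samples 1 to 4. LAP sample 4 fell within the range of the controls, and the difference was 0.15 ± 0.06 (exact permutation test, two-sided, p = 0.0571; 0.114 adjusted over 4 probe sets of Cebpb and Blnk). The first probe set of Cebpb differed by 0.06 (exact permutation p = 0.257) and the second by -0.07 (exact permutation p = 0.343). A rise of Cebpb was thus not detected in the LAP samples, and their label rests on no value of Cebpb. Which part of the Cebpb transcript each probe set reads, and whether the retroviral RNA carries it, is not stated in the labels. Whether these 3 probe sets could read the viral RNA was not tested. In the tumours the third probe set of Cebpb lay 3.64 higher in LAP/Blnk than in Blnk preB-ALL (limma adjusted p = 0.189). The LAP difference in cells minus that in tumours was -3.49 ± 0.54 (limma adjusted p = 0.0067 over all genes). That last fit gave each gene 1 variance over cell and tumour arrays together. Tumours vary more than the cells, so its SE and p-value depend on this pooling.

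Blnk, knocked out in the mouse of origin of both groups, has 1 probe set. It was at 0.10, 0.05, 0.03 and 0.07 in control samples 1 to 4 and at -0.03, -0.07, -0.03 and -0.04 in LAP samples 1 to 4. All controls lay above all LAP samples by a small margin, a difference of -0.10 ± 0.03 (limma adjusted p = 0.020). The exact permutation p was 0.0286, the smallest that 4 against 4 samples allow, and 0.114 after adjustment over the 4 probe sets. Without control samples 1 and 4 the Blnk difference was -0.08 and did not pass (limma adjusted p = 0.13).

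Ccl9, a chemokine made mainly by myeloid cells, had the largest rise in the test of 1 probe set per gene (a probe set of Mycn outside that test, described below, differed by more). Ccl9 was at -2.08, -1.85, -1.94 and -1.98 in control samples 1 to 4 and at 1.86, 1.85, 1.85 and 1.99 in LAP samples 1 to 4. The groups lay far apart with little spread inside them, and Ccl9 rose by 3.85 ± 0.05 (14.4-fold; limma adjusted p = 3.6e-10). Its second probe set rose by 3.13. Ccl3, the chemokine MIP-1α, was at -0.68, -0.65, -0.85 and -0.51 in controls and at 0.73, 0.51, 0.89 and 0.90 with LAP. Every LAP sample lay above every control, and Ccl3 rose by 1.43 ± 0.10 (limma adjusted p = 7.9e-06).

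Ccr2, the receptor through which monocytes follow Ccl2, was at -1.82, -1.07, -0.85 and -1.18 in controls and at 1.07, 1.23, 0.95 and 0.85 with LAP. The groups did not overlap, but control sample 1 was the lowest by a wide margin, and the rise of 2.25 ± 0.18 was 1.98 without control samples 1 and 4. The other 3 probe sets of Ccr2 differed by 0.78, 0.35 and -0.02, so the size of the change depends on the probe set. Of 29 chemokine and chemokine receptor genes measured 4 rose (Ccl9, Ccr2, Ccl3 and Ccl6, the last by 0.70 ± 0.06) and 0 fell (13.8% higher, against 10.5% of all genes), with a list median of -0.0033. Ccl2, the ligand of Ccr2, differed by 0.03, Ccl4 by 0.02 and Ccl5 by 0.05, and none of these 3 passed.

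Slpi, Cybb and Lyz2, genes of secretory granules and phagocytes, also rose by more than 2-fold, while most members of their lists did not pass. Slpi, the secretory leukocyte protease inhibitor, was at -1.28, -1.34, -1.22 and -1.25 in control samples 1 to 4 and at 1.28, 1.22, 1.30 and 1.28 in LAP samples 1 to 4. It rose by 2.54 ± 0.03 (5.83-fold; limma adjusted p = 3.6e-10), and the groups were each within a narrow band. Cybb, the catalytic subunit of the phagocyte NADPH oxidase, was at -1.14, -1.05, -1.09 and -1.22 in controls and at 1.05, 1.27, 1.12 and 1.22 with LAP. The samples of each group clustered tightly and Cybb rose by 2.29 ± 0.05, while its other probe sets rose by 0.79 and 0.36. Lyz2, the lysozyme of granulocytes and macrophages, was at -0.74, -0.75, -0.74 and -0.73 in controls and at 0.78, 0.73, 0.81 and 0.82 with LAP. No sample of either group came near the other, and Lyz2 rose by 1.53 ± 0.03 (2.88-fold).

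The plot of every array for the largest changes shows how little the samples of a group spread for most of these genes. Of 22 phagocyte oxidase and lysosome genes 3 rose (Cybb, Lyz2 and the granule protease activator Ctsc, 0.45 ± 0.06) and 3 fell (Npc2 at -0.35, Ctss at -0.20 and Rac2 at -0.11), with a median of 0.0179. These shares of 13.6% in each direction are near the 10.5% and 11.8% of all genes. Without control samples 2 and 3, 5 of the 22 genes rose and 3 fell. Cyba, the partner subunit of Cybb in the membrane, differed by -0.01 and Ncf4 by -0.02, and neither passed.

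**Figure D2:**
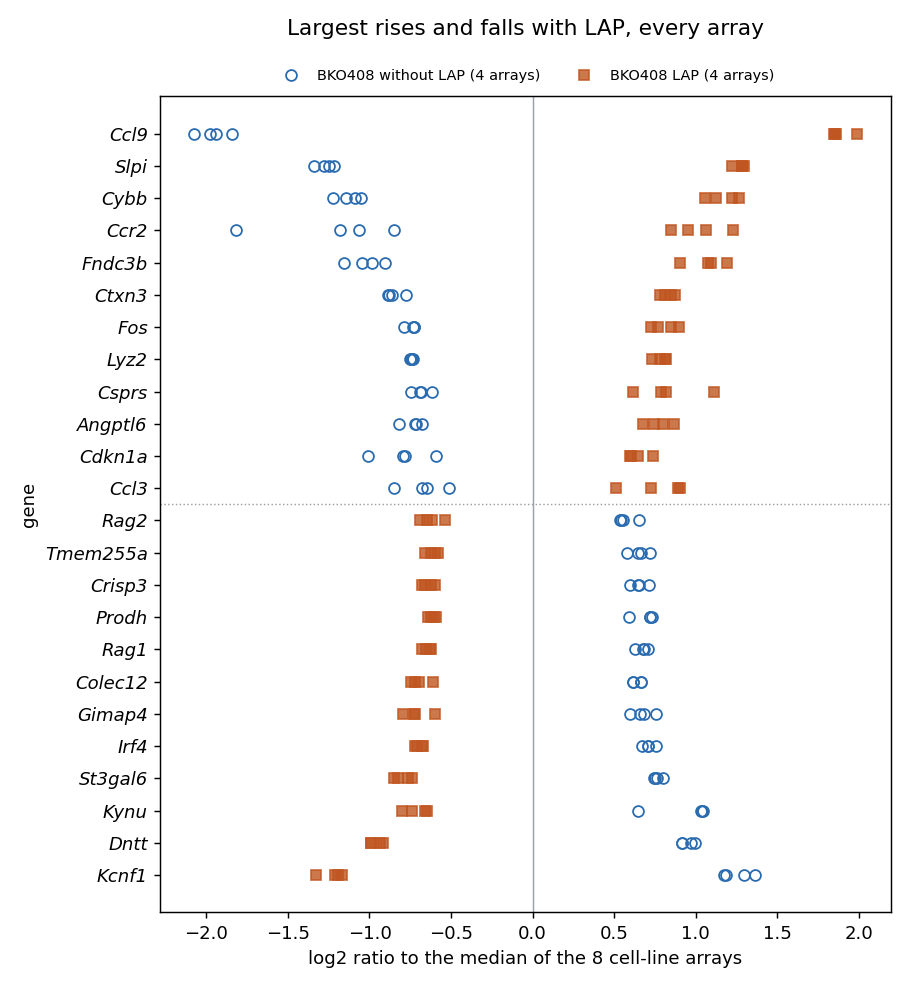
Log2 ratio to the median over all 8 BKO408 arrays (horizontal axis) in every sample, for the 12 largest rises and, below the dotted line, the 12 largest falls (1 gene per row). Open circles are the 4 control samples and squares the 4 LAP samples; the groups are apart in all 24 genes, and the wide spread of the controls stands out for Ccr2 (-1.82 to -0.85).

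Marker lists of other blood cells were read beside these rises. Of 17 neutrophil granule genes 3 rose (Slpi, the collagenase Mmp8 at 0.45 ± 0.06 and proteinase 3, Prtn3, at 0.44 ± 0.07) and Elane fell (-0.12 ± 0.03), so 17.6% were higher against 10.5% of all genes, with a list median of 0.0049. The defining genes Mpo (-0.07), S100a8 (-0.01), S100a9 (-0.08), Ltf (0.02) and Camp (0.01) did not pass. The list median of an array lay between -0.0117 and -0.0012 in controls and between -0.024 and 0.0399 with LAP.

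Of 21 monocyte and macrophage genes 2 rose, the adaptor Tyrobp by 0.48 ± 0.06 and the Fc receptor Fcgr1 by 0.41 ± 0.06, and 2 fell, the Toll-like receptors Tlr2 (-0.35 ± 0.06) and Tlr4 (-0.14 ± 0.03). The 9.52% called in each direction are below the shares of all genes. Csf1r differed by 0.04, Adgre1 by 0.00, Cd68 by 0.06 and Itgam by 0.12, and none of these passed. The array medians of this list ran from -0.022 to 0.0109 in controls and from -0.0164 to 0.0103 with LAP, so they overlapped. Whether a few cells of another type moved any single gene was not tested, since no level was kept.

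Because a C/EBP factor was introduced, promoters of 5 genes that rose and are known from myeloid cells are shown next, the 4 genes Ccl9, Slpi, Cybb and Lyz2 and the repressor Gfi1. They were chosen after their values were seen. Each is the 250 bases before the RefSeq start of the gene on GRCm38.p6, written 5′ to 3′ in the direction of the gene, all 5 on the minus strand. Capitals mark matches to TTGCNNAA (the letters of a C/EBP site), TGANTCA (AP-1) or CACGTG (E-box), searched on both strands; no one of these strings contains another.
Ccl9, chr11:83578637-83578886: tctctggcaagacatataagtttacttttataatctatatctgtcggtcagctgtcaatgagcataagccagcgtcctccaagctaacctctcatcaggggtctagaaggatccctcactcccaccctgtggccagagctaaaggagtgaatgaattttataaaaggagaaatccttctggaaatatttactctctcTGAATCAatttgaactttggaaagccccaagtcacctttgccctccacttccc
Slpi, chr2:164356508-164356757: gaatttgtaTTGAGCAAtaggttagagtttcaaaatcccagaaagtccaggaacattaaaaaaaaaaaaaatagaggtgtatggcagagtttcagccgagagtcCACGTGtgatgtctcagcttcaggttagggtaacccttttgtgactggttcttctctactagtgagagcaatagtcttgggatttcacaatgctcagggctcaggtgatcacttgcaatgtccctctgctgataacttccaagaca
Cybb, chrX:9469325-9469574: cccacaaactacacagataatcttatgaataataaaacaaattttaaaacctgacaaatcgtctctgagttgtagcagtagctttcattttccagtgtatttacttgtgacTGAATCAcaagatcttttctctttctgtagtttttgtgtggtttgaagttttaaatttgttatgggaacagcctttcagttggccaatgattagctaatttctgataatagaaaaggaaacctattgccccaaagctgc
Lyz2, chr10:117282273-117282522: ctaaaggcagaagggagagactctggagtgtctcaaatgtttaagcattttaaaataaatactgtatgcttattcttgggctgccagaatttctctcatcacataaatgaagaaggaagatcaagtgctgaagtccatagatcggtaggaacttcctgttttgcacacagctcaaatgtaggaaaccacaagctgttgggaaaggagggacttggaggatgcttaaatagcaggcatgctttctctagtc
Gfi1, chr5:107725806-107726055: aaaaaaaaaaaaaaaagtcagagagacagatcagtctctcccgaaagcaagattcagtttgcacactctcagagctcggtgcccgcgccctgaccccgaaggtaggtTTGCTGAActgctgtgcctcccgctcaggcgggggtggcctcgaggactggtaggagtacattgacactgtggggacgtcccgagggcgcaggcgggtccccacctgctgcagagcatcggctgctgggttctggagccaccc
The Slpi window holds a C/EBP match that begins 241 bases before the start and an E-box 146 bases before it, and the Gfi1 window shown a C/EBP match 143 bases before it, while a second Gfi1 window, of another start, holds none of these letters. The Ccl9 and Cybb windows each hold an AP-1 match (TGAATCA), 53 and 139 bases before the start, and the Lyz2 window holds none of these letters.

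Across all genes at least 2-fold higher, 25 of 28 had a promoter in the RefSeq table, in 28 windows. TTGCNNAA was in 3 of the 28 windows (10.7%; Gfi1, Ino80 and Slpi) and in 2 of 16 windows of genes at least 2-fold lower (12.5%; Crisp3 and Tmem255a), against 9.56% of all 32851 windows of this length. TGANTCA was in 4 of the 28 windows (14.3%; Ccl9, Cybb, Hfe and Mmp13) against 6.75% of all windows, and CACGTG in as many (14.3%; Cbx5, Klf6, Prrc2c and Slpi) against 6.02%. A match is a string of letters and not a bound site, and these shares are descriptions with no test.

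Fos and Cdkn1a rose as well. Fos, a subunit of the transcription factor AP-1, was at -0.73, -0.73, -0.74 and -0.79 in control samples 1 to 4 and at 0.77, 0.73, 0.90 and 0.85 in LAP samples 1 to 4. The groups stood clear of each other, and Fos rose by 1.56 ± 0.04 (2.94-fold; limma adjusted p = 1.3e-08). Cdkn1a, which encodes the cyclin-dependent kinase inhibitor p21, was at -0.59, -0.80, -1.01 and -0.78 in controls and at 0.64, 0.60, 0.74 and 0.59 with LAP. The controls spread more than the LAP samples without touching them, and Cdkn1a rose by 1.44 ± 0.08, with a second probe set at 1.19.

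Immediate early genes, which growth signals and handling of cells switch on within minutes, rose in 12 of 32 members measured and fell in 3 (37.5% higher, against 10.5% of all genes; median 0.0637). Those with the largest rises after Fos were the zinc-finger factors Klf2 (1.19 ± 0.06), Klf6 (1.04 ± 0.13) and Egr1 (0.84 ± 0.03), the phosphatase gene Dusp1 (0.62 ± 0.04) and the AP-1 partner Jun (0.52 ± 0.04). The 3 that fell were led by the antiproliferative gene Btg2 (-0.69 ± 0.04) and Dusp4 (-0.60 ± 0.04). Fosb (0.00), Egr2 (-0.04) and Nr4a1 (0.07) did not pass. The labels do not describe how the cells were handled before lysis, and its part in this group was not tested. The letters of a CArG box, the site of serum response factor, were in 4 of 32 promoter windows of the list (12.5%, all of Egr2), against 1.47% of all windows.

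Of 25 genes of G1 cyclins, kinases and inhibitors 6 rose and 9 fell (60.0% called, against 22.3% of all genes), with a median of -0.0024. Besides Cdkn1a the inhibitor gene Cdkn2a rose by 0.37 ± 0.03 and the inhibitor gene Cdkn2c fell by 0.42 ± 0.03. The S-phase cyclins Ccne1 (-0.36 ± 0.06) and Ccne2 (-0.35 ± 0.03) and the E2F repressor E2f7 (-0.36 ± 0.03) fell. Of 25 p53 targets 8 rose and 5 fell (52.0% called, against 22.3% of all genes), with a median of 0.0087. The ribonucleotide reductase subunit Rrm2b (0.81 ± 0.05) and the nuclease Aen (0.41 ± 0.05) rose, and Trp53inp1 (-0.57 ± 0.02) and Sesn1 (-0.37 ± 0.03) fell. Without control samples 2 and 3 the p53 counts were 5 and 3. Bbc3 (0.10), Ccng1 (0.06), Fas (-0.02) and Zmat3 (0.06) did not pass.

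The remaining large rises were of unlike kinds. Fndc3b, a fibronectin type III domain protein, was at -0.98, -0.90, -1.05 and -1.16 in control samples and at 1.08, 1.09, 0.90 and 1.19 in LAP samples. The groups were well apart and Fndc3b rose by 2.09 ± 0.07, and by 1.07 with its other probe set. Ctxn3, a cortexin gene, was at -0.88, -0.88, -0.86 and -0.78 in controls and at 0.78, 0.85, 0.87 and 0.81 with LAP. All LAP samples lay above all controls for Ctxn3, a rise of 1.68 ± 0.03.

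Csprs was at -0.69, -0.75, -0.69 and -0.61 in controls and at 0.79, 0.61, 1.11 and 0.82 with LAP. LAP sample 3 was highest, the groups did not meet, and Csprs rose by 1.52 ± 0.09, but by 0.24 and 0.45 with its other probe sets. The secreted angiopoietin-like factor Angptl6 was at -0.72, -0.68, -0.72 and -0.82 in controls and at 0.75, 0.68, 0.87 and 0.80 with LAP. It rose by 1.50 ± 0.05, with the groups far apart.

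The rises between 2-fold and Angptl6 included secreted and membrane proteins: the collagenase Mmp13 (1.42 ± 0.08), the cytokine lymphotoxin α, Lta (1.18 ± 0.07), the iron-regulating Hfe (1.05 ± 0.03) and Paqr3 (1.01 ± 0.07). Pleckstrin, Plek, a substrate of protein kinase C in platelets and leukocytes, rose by 1.37 ± 0.03. The enzymes were the heparan sulfate epimerase Glce (1.02 ± 0.03), the acyl-CoA thioesterase Acot2 (1.06 ± 0.05) and the cytochrome b5 reductase Cyb5r1 (1.18 ± 0.03). Nuclear proteins were the repressor Gfi1 (1.27 ± 0.03), the linker histone H1f2 (1.21 ± 0.02), the heterochromatin protein Cbx5 (1.30 ± 0.19), the remodelling ATPase Ino80 (1.03 ± 0.17) and Prrc2c (1.28 ± 0.27). Among 17 myeloid transcription factors Gfi1 rose and its relative Gfi1b fell by 0.95 ± 0.06 (5.88% each way, against 10.5% and 11.8% of all genes). Without control samples 2 and 3, 3 of these 17 rose and 2 fell. In that list Spi1 (-0.12), Irf8 (0.06) and Klf4 (-0.01) did not pass. Of 5 C/EBP family genes 2 rose (40.0%), Ddit3 (0.63 ± 0.03) and Cebpg (0.34 ± 0.08), both partners that can dimerise with C/EBPβ. Cebpa differed by -0.01 and Cebpd by 0.04.

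The control samples were not alike. Control samples 1 and 4 lay apart from 2 and 3 by at least 0.5 in 171 genes, and in all 171 they were the lower ones. Of these 171 genes 12 passed (7.02%, against 22.3% of all genes). They were picked for a wide spread among controls, which enters the variance of the test. A low share was therefore built in, and nothing is read from it. Since 2 low controls lower the mean of the control group, nothing is read from the direction of these genes. Among the 2-fold genes Prrc2c was at -1.68, -0.30, -0.32 and -0.99 in control samples 1 to 4 against 0.45, 0.73, 0.35 and 0.30 with LAP, and Cbx5 at -1.28, -0.47, -0.35 and -0.90 against 0.57, 0.81, 0.48 and 0.35. Control samples 1 and 4 were the lowest for both, and without them Prrc2c differed by 0.77, Cbx5 by 0.96, Ino80 by 0.71 and Klf6 by 0.84, all still past the threshold. With a variance trend Prrc2c did not pass (limma adjusted p = 0.413). The labels name no batch, and what sets these 2 control samples apart was not tested. The plot of the spread among controls shows that the rises of Ccl9 and Slpi and all falls of at least 2-fold lie near 0 on that axis, the falls between -0.08 (Gbp2) and 0.19 (Kynu).

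**Figure D3:**
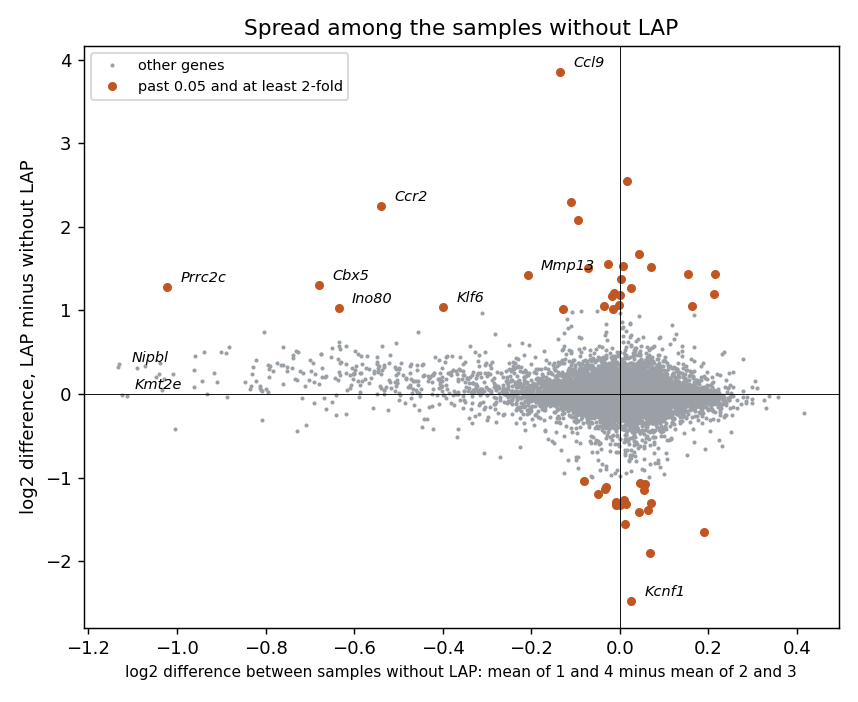
Each point is 1 of 17097 genes, with the mean of control samples 1 and 4 minus the mean of control samples 2 and 3 on the horizontal axis and the LAP minus control difference on the vertical axis, both in log2 units. Orange points are the 47 genes with at least a 2-fold difference; the tail to the left is made of genes low in control samples 1 and 4, with Prrc2c, Cbx5, Ino80, Ccr2 and Klf6 at its upper edge.

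Probe sets of a gene did not always agree. Of the 47 genes at least 2-fold apart 25 had 1 probe set, and of the 22 with several 16 had every probe set past the threshold in the same direction. The 6 others were Cbx5, Ccr2, Cobll1, Glce, Prrc2c and St3gal6. The other 4 probe sets of Cbx5 differed by -0.10 to 0.14, and the second of Cobll1 by -0.04. Sizes also varied among the 16: the other probe set of Ino80 rose by 0.19 and those of Plek by 0.32 and 1.75. With every named probe set tested on its own, 5857 of 28898 passed (20.3%), 63 of them by at least 2-fold.

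The largest difference of any named probe set was not in the gene-wise test, and it was noticed after the values were seen. One of 3 probe sets of Mycn, an oncogene of the Myc family, was at -2.79, -2.92, -3.05 and -3.13 in control samples 1 to 4 and at 2.79, 2.79, 2.87 and 2.90 in LAP samples 1 to 4. The 8 values form 2 tight groups, 5.81 ± 0.07 apart (56.1-fold; limma adjusted p = 3.1e-10 over 28898 probe sets). The Mycn probe set that stood for the gene differed by 0.38 ± 0.03, from between -0.21 and -0.17 in controls to between 0.17 and 0.22 with LAP, and the third by 0.04, which did not pass. Over the 16 tumours the probe set with the 56.1-fold difference ranged only from -0.26 to 0.45, whereas the one that stood for Mycn ranged from -0.39 to 8.20. The annotation gives all 3 the symbol Mycn, and what sequence the discordant one reads in the LAP samples was not tested.

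**Figure D4:**
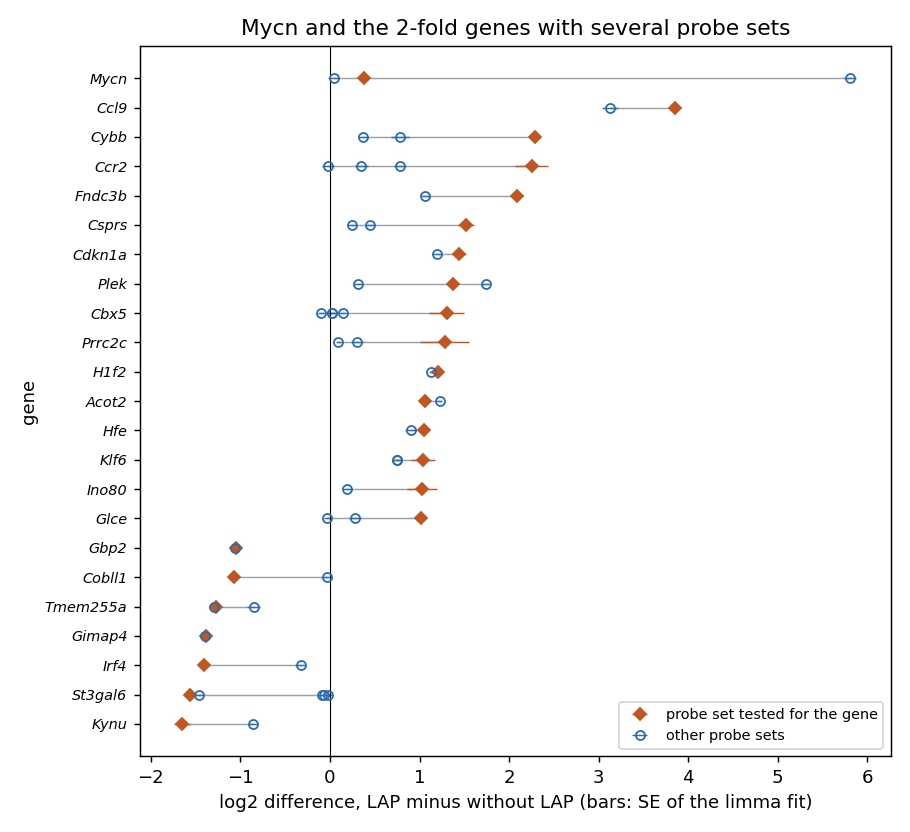
Log2 difference (LAP minus control, horizontal axis, with the SE of the limma fit as bars) of every probe set of Mycn and of the 22 genes at least 2-fold apart that have several probe sets. Diamonds are the probe sets that stood for the gene in the test and open circles the others; those of Gimap4 agree closely, those of Ccl9 (3.85 and 3.13) agree in direction, while Ccr2 runs from -0.02 to 2.25 and Mycn from 0.04 to 5.81.

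Dntt, Rag1 and Rag2, genes of early B-cell development, fell by more than 2-fold. Dntt, the terminal transferase, was at 0.97, 0.92, 0.92 and 0.99 in control samples 1 to 4 and at -0.94, -0.99, -0.99 and -0.92 in LAP samples 1 to 4. It fell by 1.91 ± 0.03 (3.75-fold; limma adjusted p = 1.3e-09), with the samples of each group almost superimposed. The recombinase gene Rag1 was at 0.69, 0.70, 0.63 and 0.67 in controls and at -0.68, -0.65, -0.63 and -0.63 with LAP. Its neighbour and partner Rag2 was at 0.54, 0.54, 0.65 and 0.56 in controls and at -0.64, -0.62, -0.69 and -0.54 with LAP. Neither gene overlapped between groups, and Rag1 fell by 1.32 ± 0.03 and Rag2 by 1.19 ± 0.04.

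Of 14 genes of V(D)J recombination and end joining 7 fell and 2 rose (50.0% lower, against 11.8% of all genes; median -0.097). After Dntt and the Rag genes the largest changes were in the end-joining factors Xrcc6 (-0.29 ± 0.03), Xrcc4 (0.29 ± 0.03) and Lig4 (-0.28 ± 0.03). Of 13 markers of the labelled cell type, the pre-B cell, 5 fell and 1 rose (38.5% and 7.69%, against 11.8% and 10.5% of all genes). Besides the 3 genes above Cd24a (-0.38 ± 0.03) and Ebf1 (-0.20 ± 0.06) fell and Cd79b rose by 0.14 ± 0.03, and Vpreb1 (0.01), Vpreb2 (-0.01) and Pax5 (-0.12) did not pass. Igll1 and Il7r were not analysed here.

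Irf4, which pre-B receptor signalling induces and which promotes light-chain rearrangement, was at 0.71, 0.67, 0.71 and 0.76 in control samples and at -0.72, -0.67, -0.71 and -0.68 in LAP samples. The values within a group were close together and Irf4 fell by 1.41 ± 0.03 (2.65-fold), but by 0.33 with its second probe set. Among 28 transcription factors of the B lineage 13 fell and 1 rose (46.4% lower, against 11.8% of all genes; median -0.112). Next to Irf4 these were Id3 (-0.52 ± 0.03), Bach2 (-0.51 ± 0.03), Ets1 (-0.37 ± 0.03), Lef1 (-0.37 ± 0.08) and Myb (-0.29 ± 0.04). Also in this list, Ebf1 fell as given above, while Pax5, Foxo1 (-0.05), Spib (0.05) and Ikzf3 (-0.05) did not pass.

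Of 25 genes of the pre-B receptor and its signalling 6 fell and 3 rose (median -0.0279), led by protein kinase C β, Prkcb (-0.46 ± 0.05), the adaptor Lat (-0.43 ± 0.05) and the phosphatase Inpp5d (-0.27 ± 0.04). Syk (-0.02), Btk (0.01) and Plcg2 (-0.04), which act next to Blnk, did not pass. Of 23 mature B-cell surface genes 8 fell and 3 rose (34.8% lower). The BAFF receptor Tnfrsf13c (-0.67 ± 0.04), the inhibitory lectin Cd22 (-0.59 ± 0.06) and Cd72 (-0.50 ± 0.03) fell, and the activation antigen Cd69 (0.57 ± 0.03) and Cd53 (0.40 ± 0.04) rose. Of 13 MHC class II genes 3 fell and 1 rose (23.1% and 7.69%, against 11.8% and 10.5% of all genes). H2-Aa (0.02), Cd74 (0.06) and Ciita (-0.06) did not pass. Without control samples 2 and 3, 1 gene of that list fell.

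Cytokine receptor and early progenitor genes changed in both directions. Of 19 measured 4 rose and 3 fell (21.1% and 15.8%, against 10.5% and 11.8% of all genes). The cytokine receptor Flt3 was lowest at -0.71 ± 0.03 and Csf2rb highest at 0.25 ± 0.04. Kit (-0.06), Csf1r and Csf3r (0.00) did not pass. Of 18 IL-7 and STAT5 response genes 4 rose and 4 fell (22.2% each way). The kinase Pim1 (0.50 ± 0.04), the feedback inhibitor Cish (0.38 ± 0.03) and Mcl1 (0.18 ± 0.03) rose. Igfbp4 (-0.47 ± 0.06) and the cyclin Ccnd3 (-0.19 ± 0.03) fell. Among 24 adhesion and homing genes 5 rose and 6 fell. Klf2, known to drive S1pr1 in lymphocytes, rose by 1.19 while S1pr1 fell by 0.35 ± 0.06, the integrin Itga4 rose by 0.57 ± 0.15 and Pecam1 fell by 0.55 ± 0.07. Without control samples 1 and 4, 3 genes of the adhesion list rose and 4 fell.

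Other single genes fell further than most of these. Kcnf1, a potassium channel subunit, was at 1.17, 1.18, 1.29 and 1.36 in control samples and at -1.21, -1.33, -1.19 and -1.17 in LAP samples. Kcnf1 fell by 2.48 ± 0.05 (5.57-fold), the largest fall of the genes tested, with the groups far apart. Kynu, kynureninase of tryptophan breakdown, was at 1.04, 1.04, 0.64 and 1.03 in controls and at -0.64, -0.80, -0.66 and -0.74 with LAP. Control sample 3 was the lowest control, still above every LAP sample, and Kynu fell by 1.65 ± 0.09, though with a variance trend it did not pass (limma adjusted p = 0.116).

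The sialyltransferase gene St3gal6 was at 0.80, 0.76, 0.75 and 0.74 in controls and at -0.74, -0.76, -0.82 and -0.85 with LAP. The groups did not overlap, and it fell by 1.56 ± 0.03, whereas of its other probe sets one fell by 1.46 and the rest differed by -0.08 to -0.02 and did not pass. Colec12, a collectin scavenger receptor, was at 0.67, 0.62, 0.66 and 0.61 in controls and at -0.70, -0.61, -0.72 and -0.74 with LAP. Prodh, the proline dehydrogenase, was at 0.73, 0.59, 0.72 and 0.72 in controls and at -0.62, -0.59, -0.61 and -0.64 with LAP. Both stood clear between groups, Colec12 falling by 1.33 ± 0.03 and Prodh by 1.30 ± 0.04.

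Crisp3, a secreted cysteine-rich protein, was at 0.64, 0.60, 0.71 and 0.65 in controls and at -0.66, -0.62, -0.68 and -0.60 with LAP. The membrane protein gene Tmem255a was at 0.67, 0.58, 0.72 and 0.65 in controls and at -0.62, -0.58, -0.60 and -0.66 with LAP. The groups were apart in both, with falls of 1.29 ± 0.03 and 1.27 ± 0.04. The other falls of at least 2-fold were those of Sh3bgrl2 (-1.15 ± 0.03), the engulfment receptor Megf10 (-1.14 ± 0.03), Uaca (-1.12 ± 0.04), Ceacam9 (-1.08 ± 0.04), Cobll1 (-1.07 ± 0.03) and the guanylate-binding protein Gbp2 (-1.04 ± 0.05). The 2 other genes past 2-fold are rearranging segments, Igkj1 (-1.33, lower) and Trgv1 (1.05, higher), which report on clones as well as on transcription and were only counted.

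Immune GTPases fell as a family. Gimap4, a GTPase of lymphocytes, was at 0.76, 0.68, 0.60 and 0.66 in control samples and at -0.72, -0.73, -0.80 and -0.60 in LAP samples. It fell by 1.38 ± 0.05 with no overlap, and its second probe set fell by 1.40. Of 8 Gimap genes 7 fell and 0 rose (87.5% lower, against 11.8% of all genes; median -0.332), among them Gimap8 (-0.78 ± 0.04), Gimap6 (-0.53 ± 0.03) and Gimap7 (-0.35 ± 0.07). The Gimap genes lie in one cluster and are not independent of each other. Gimap5 differed by -0.16 and did not pass.

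Of 36 interferon response genes 15 fell and 2 rose (41.7% lower; median -0.101). The largest falls were those of the interferon-induced GTPases Gbp2, Tgtp1 (-0.91 ± 0.03) and Gbp3 (-0.75 ± 0.05), followed by Xaf1 (-0.45 ± 0.05) and the nucleic-acid sensors Zbp1 (-0.45 ± 0.08) and Ddx58 (-0.38 ± 0.05). Among antiviral genes typical of a type I response Mx1 (-0.02), Rsad2 (0.05), Irf7 (-0.02) and Oas2 (-0.07) did not pass, and Ifit3 fell by 0.32 ± 0.05. Of 17 NF-kB pathway genes 3 fell and 1 rose (17.6% and 5.88%, against 11.8% and 10.5% of all genes). The feedback genes Tnfaip3 (-0.34 ± 0.04) and Nfkbia (-0.26 ± 0.03) were among those that fell. Of 25 inflammatory genes 4 rose and 3 fell: Vegfa (0.53 ± 0.03), Il6ra (0.48 ± 0.08), Tnf (0.30 ± 0.08) and Socs3 (0.27 ± 0.06) rose, while Il6 (-0.09), Il1b (-0.06) and Lcn2 (-0.02), classical C/EBPβ targets in macrophages, did not pass. The number of inflammatory genes that fell was 1 without control samples 1 and 4 and 0 without 2 and 3.

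Metabolic and growth programmes moved by small amounts in many members at once. Ribosome biogenesis genes rose in 30 of 44 and fell in 1 (68.2% higher, against 10.5% of all genes), with a median of 0.185. Those with the largest rises were Ppan (0.48 ± 0.03), Rpf2 (0.43 ± 0.05), Imp4 (0.36 ± 0.05), Rrp12 (0.35 ± 0.03), Rrp1b (0.32 ± 0.07) and Nolc1 (0.32 ± 0.03), which process the ribosomal precursor RNA or assemble the subunits. The median of these genes on an array lay between -0.116 and -0.07 in the 4 controls and between 0.0657 and 0.0804 in the 4 LAP samples. Mitochondrial ribosomal proteins rose in 26 of 73 and fell in 3 (35.6% higher; median 0.0626). Without control samples 2 and 3 that count was 16, and without 1 and 4 it was 19. Cytosolic ribosomal proteins rose in 6 and fell in 6 of 70 (17.1% called, against 22.3%), with a median of -0.0111, and 3 fell without control samples 1 and 4.

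Genes of polyamine and nucleotide synthesis rose in 9 of 23 and fell in 2 (39.1% higher; median 0.0955), with spermidine synthase, Srm, at 0.46 ± 0.03 and the pyrimidine enzyme Cad at 0.28 ± 0.04. Of 10 genes of the Myc family and partners 3 rose and 4 fell (30.0% and 40.0%, against 10.5% and 11.8% of all genes). Myc rose by 0.21 ± 0.03, and Mxd4 (-0.56 ± 0.03), Mxd3 (-0.44 ± 0.06) and Mxd1 (-0.22 ± 0.07), which compete with Myc for its partner Max, fell. Without control samples 2 and 3, 2 of the 10 rose and 2 fell. The E-box CACGTG, the site of Myc and Max, was in 3 of 44 promoter windows of the ribosome biogenesis genes (6.82%), against 6.02% of all windows.

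Sterol synthesis went the other way. Of 21 genes of cholesterol synthesis 15 fell and 0 rose (71.4% lower, against 11.8% of all genes), with a median of -0.307. Insig1 (-0.69 ± 0.03), a sterol sensor, and the enzymes Msmo1 (-0.62 ± 0.03), Fdps (-0.58 ± 0.03), Lss (-0.56 ± 0.07), Fdft1 (-0.54 ± 0.03) and Cyp51 (-0.51 ± 0.03) led the falls. Srebf2, the transcription factor of the pathway, fell by 0.39 ± 0.04, and Hmgcs1 (-0.11) and Sc5d (-0.08) did not pass. Array medians of the list ran from 0.169 to 0.204 in controls and from -0.168 to -0.128 with LAP. Of 12 fatty acid synthesis genes 10 fell and 0 rose (83.3% lower; median -0.147), with the desaturases Fads2 (-0.56 ± 0.03), Fads1 (-0.33 ± 0.03) and Scd1 (-0.19 ± 0.03) among them. The sterol element TCACNCCAC was in 1 of 22 promoter windows of the cholesterol genes, that of Hmgcs1 (4.55%, against 1.05% of all windows), and CACGTG in 5 of 22 (22.7%).

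DNA replication genes fell in 26 of 43 and rose in 0 (60.5% lower, against 11.8% of all genes), with a median of -0.116. The largest of these falls were those of the primase subunit Prim2 (-0.41 ± 0.03), the polymerase Pole (-0.25 ± 0.03), the helicase subunit Mcm7 (-0.24 ± 0.04) and thymidine kinase Tk1 (-0.24 ± 0.03). Pcna (-0.05), Mcm2 (-0.05) and Tyms (0.09) did not pass, and without control samples 1 and 4 the count was 18. Mitosis genes were split, 9 higher and 8 lower of 32, with Kif23 (0.41 ± 0.05) and Aurka (0.23 ± 0.03) higher and Top2a (-0.37 ± 0.04) and Cdc25b (-0.33 ± 0.03) lower. Without control samples 2 and 3, 8 mitosis genes were higher and 5 lower. Cenpf differed by 0.51 ± 0.23 and did not pass, with control samples 1 and 4 the lowest at -1.12 and -0.68.

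**Figure D5:**
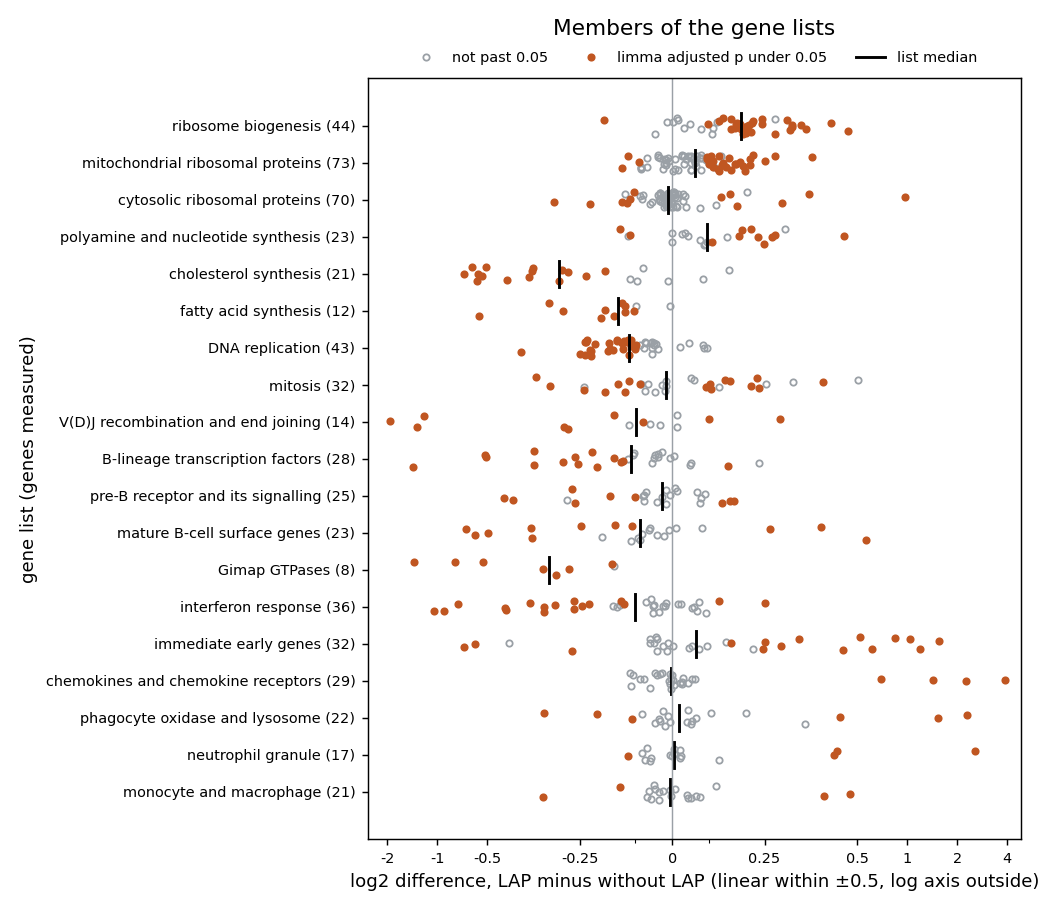
Each point is a measured member of a gene list (number measured in brackets), placed by its log2 difference, LAP minus control; the axis is linear within ±0.5 and logarithmic outside. Filled points passed the limma threshold and black bars are list medians: ribosome biogenesis sits to the right (0.185), cholesterol synthesis and Gimap GTPases to the left (-0.307 and -0.332), and chemokines hold 4 far points with the rest near 0.

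Stress genes did not move as one. Of 24 ATF4 amino-acid stress genes 5 rose and 9 fell (20.8% and 37.5%, against 10.5% and 11.8% of all genes). The rises were led by the pseudokinase Trib3 (0.93 ± 0.03), the phosphatase subunit Ppp1r15a (0.85 ± 0.04) and Ddit3. Chac1 (-0.37 ± 0.03), Cth (-0.35 ± 0.02) and Asns (-0.23 ± 0.02) were among those that fell. Atf4 itself differed by 0.04 and did not pass. Of 21 endoplasmic reticulum stress genes 8 rose and 4 fell (38.1% and 19.0%). The degradation factors Sel1l (0.67 ± 0.05) and Edem1 (0.46 ± 0.03) rose, and Ero1b (-0.40 ± 0.03) and Dnajb9 (-0.27 ± 0.03) fell. Heat shock and chaperonin genes rose in 5 and fell in 3 of 21 (23.8% and 14.3%), with the mitochondrial chaperone Hspa9 highest (0.46 ± 0.03).

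Of 17 aminoacyl-tRNA synthetases 3 rose and 4 fell (41.2% called, against 22.3% of all genes). Of 16 BCL2 family genes 3 rose and 2 fell (31.2% called). Among 25 glycolysis and hypoxia genes 4 rose and 4 fell (32.0% called), and 2 fell without control samples 1 and 4. Ero1a, an oxidase of the endoplasmic reticulum, rose by 0.98 ± 0.04, and the death-promoting Bmf fell by 0.39 ± 0.03, while Bcl2 (0.02) did not pass. Oxidative phosphorylation rose in 10 and fell in 6 of 71 members (22.5% called, against 22.3%), and without control samples 1 and 4 it rose in 10 and fell in 0. Of 17 clock genes Cry1 rose by 0.41 ± 0.03 (5.88% higher), and Arntl (-0.73 ± 0.03) and Nr1d2 (-0.24 ± 0.03) fell (11.8% lower). Markers of T cells (1 higher and 2 lower of 13, with Cd28 at 0.73 ± 0.05), NK cells (0 and 2 of 10) and dendritic cells (0 and 2 of 8) were called at about the 22.3% of all genes. For erythroid cells and platelets the share was 8.33% (0 and 1 of 12) and for stroma and endothelium 7.69% (0 and 1 of 13). Of 6 plasma cell markers 2 rose and Irf4 fell (50.0%), and without control samples 1 and 4 none of them rose.

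Chromosome medians of the difference, each against the other autosomes, lay between -0.0076 and 0.01. For 9 of 20 chromosomes the groups did not overlap, each with an exact permutation p of 0.0286, the smallest that 4 against 4 samples allow, and 0.0635 after adjustment. For any to pass, 12 chromosomes would have had to reach that smallest p, so with this number of samples the adjusted test says little about single chromosomes, and the share of genes that passed ran from 17.1% to 25.9%.

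The same LAP contrast in Blnk-deficient tumours, LAP/Blnk preB-ALL (n = 3) minus Blnk preB-ALL (n = 5), was set against that in cells to see where the cells differ. The difference of both LAP effects passed for 180 of 17097 genes (1.05%), and for 16 of the 47 genes at least 2-fold apart in cells. Those 47 were picked for a large difference in cells, which is part of the tested contrast. A higher share among them was therefore built in. The fit gave each gene 1 variance over cell and tumour arrays together. Tumours vary more than the cells, so the p-values of this comparison depend on that pooling. The 180 became 75 to 90 with any 1 cell-line sample left out and 820 with array weights. Of the 16 genes 10 passed in all 8 fits with 1 cell-line sample left out, Cybb, Irf4, Fndc3b, H1f2 and Cyb5r1 in none, and Ino80 in 1. Of the 47 genes 21 had the same sign in the tumours, where their differences ran from -3.22 to 1.19. Gfi1 differed by 1.27 in cells and -1.25 in tumours (difference of effects 2.52; limma adjusted p = 0.0025), and Klf2 by 1.19 and -1.36 (2.55; limma adjusted p = 0.0034). Lyz2 differed by 1.53 in cells and -0.34 in tumours (1.87; limma adjusted p = 0.0091), Cybb by 2.29 and -0.11 (2.41; limma adjusted p = 0.038, and 0.0801 to 0.092 with 1 cell-line sample left out), and Irf4 by -1.41 and 0.27 (-1.67; limma adjusted p = 0.033, and 0.0745 to 0.0796). For Ccl9, 3.85 in cells and 1.00 in tumours, and for Dntt, Rag1, Slpi and Kcnf1, the difference of effects did not pass. Cells and tumours also differ in culture, source of LAP and makeup of the sample, which cannot be told apart here.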

How the data were processed

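The 8 BKO408 arrays were hybridised with biotinylated cRNA, per the labels' protocols. MAS5 is the only tool named in the submitters' processing notes, with no version. The deposited values are log ratios, taken as log2, and the median of each of 45141 probe sets over the 8 arrays is 0, so the authors' table keeps no level and no detection call. A table of 2016 gave 28898 probe sets 1 symbol, 551 several and 15692 none, and 28689 matched GRCm38.p6. For each of 17097 genes the probe set with the largest spread over the cell-line and the tumour arrays, groups ignored, entered the test.

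The 2 groups of 4 were fitted in R 4.3.3 with limma 3.58.1, two-sided, without a variance trend, with Benjamini-Hochberg adjustment and a threshold of 0.05. The 4 probe sets of Cebpb and Blnk and the chromosomes were compared with exact permutation tests over samples. On simulated data with 4 samples a group 34 of 50 genes changed by 0.25 were recovered, 49 of 50 at 0.5 and all 50 at 1 and at 2. There were 10 false calls among the genes left unchanged. The simulated noise was independent between genes and samples, unlike the shared deviation of control samples 1 and 4. The 10 therefore do not measure false calls in the real data.

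The members, the 45 gene lists (1113 genes, 1015 measured) and the rules were chosen with earlier results of these data known. Named genes are all those past the threshold, at least 2-fold apart and not overlapping (unnamed transcripts and rearranging segments counted only), with every sample's value for the 12 largest rises and 12 largest falls, and up to 6 passing members per list with markers beside them. List members that passed are described by counts and medians, with no test of the list. Same-numbered arrays of both groups did not deviate together (correlations of -0.03 to 0.26), so replicate numbers were not taken as pairs. Other probe set rules, scalings, variance models, weights and sample sets were tried. The number of arrays limits the precision.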

Additional observations from a re-analysis of the deposited data

Results flagged for a closer look

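In 7 of 102 groups of 4 samples (the 47 genes at least 2-fold apart, with Cebpb and Blnk probe sets) 1 sample stood apart from the other 3 by Dixon's ratio, and about 1 in 20 groups does so by chance. Ccl9 was highest in LAP sample 4 (1.99) and Gbp2 lowest in LAP sample 2 (-0.66). Among controls Cobll1 (0.49) and Prodh (0.59) were lowest in sample 2, Fos (-0.79) in sample 4 and Kynu (0.64) in sample 3, and Rag2 was highest in sample 3 (0.65). None of these samples reached the other group.

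For 16 of the 47 genes at least 2-fold apart (180 of all genes) the LAP effect in BKO408 cells differed from that between LAP/Blnk and Blnk preB-ALL. This was by limma's test of the difference, adjusted over all genes, with 1 variance per gene over cells and the more variable tumours. The 47 were picked for a large difference in cells, which is part of that contrast, so a higher share among them was built in. With 1 cell-line sample left out the 180 became 75 to 90, and of the 16 genes Cybb, Irf4, Fndc3b, H1f2 and Cyb5r1 no longer passed in any of 8 such fits and Ino80 passed in 1. The effect was higher in cells for the transcription regulators Klf2 (by 2.55), Gfi1 (2.52) and Fos (1.74), the phagocyte genes Cybb (2.41) and Lyz2 (1.87), the secreted factors Angptl6 (1.76) and Ccl3 (1.62), the chromatin genes H1f2 (1.97) and Ino80 (1.18), and for Fndc3b (1.74), Paqr3 (1.14), Trgv1 (1.11) and Cyb5r1 (0.84). It was lower in cells for Irf4 (-1.67), Kynu (-1.56) and Ceacam9 (-1.11).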

How the results depend on the processing

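Of the 47 genes at least 2-fold apart 45 kept their direction and their side of the threshold in every alternative except the fit of all 24 arrays, in which 10 did. The other 2 lost the threshold under a variance trend: Kynu (limma adjusted p = 0.116) and Prrc2c (0.413). Whether a gene stayed at least 2-fold apart was not part of this comparison. With the mean of a gene's probe sets 37 genes were at least 2-fold apart, in place of 47. The fit of all 24 arrays, whose variance estimate includes the 16 tumours, passed 21 genes (16 higher, 5 lower; 10 at least 2-fold) in place of 3820. Testing every named probe set passed 5857, 2878 of them higher, among more tests. Leaving out 1 sample at a time passed 3080 to 3515 genes, 1450 to 1730 higher and 1602 to 1908 lower, with 46 to 52 at least 2-fold; Cebpb probe sets ranged from 0.03 to 0.09, -0.11 to -0.03 and 0.10 to 0.18, Blnk from -0.11 to -0.09, and chromosome 18 from 0.0088 to 0.011. With 1 sample left out 0 chromosomes passed, which shows nothing about stability because the number of samples leaves hardly any room to pass after adjustment over 20. The 180 genes that differed between cells and tumours became 820 with array weights and 75 to 90 with any 1 cell-line sample left out, so that count rests on the fit; the cause was not tested. Without control samples 1 and 4 (chosen after seeing the data) 3025 genes passed, 2688 of them shared with the 3820, and without 2 and 3, 3364, of which 2784 were shared. With the replicate number as a block 3427 passed (1651 higher, 1776 lower), 3182 of them shared, with 47 at least 2-fold, and the numbers do not pair the samples. Quantile scaling gave 1957 higher and 1820 lower. Without a level the share of probe sets near background is unknown.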

Other observations

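Genes of sialic acid chemistry and some other families were looked at after their values were seen, so they are described without a test of the family. For comparison, 10.5% of all genes were higher and 11.8% lower. Of 13 sialyltransferase genes measured 4 fell and 0 rose: St3gal6 (-1.56 ± 0.03), the ganglioside GM3 synthase St3gal5 (-0.75 ± 0.09), St6gal1 (-0.64 ± 0.03), which makes the ligand of Cd22, and the polysialyltransferase St8sia4 (-0.18 ± 0.03). Cmah, the hydroxylase that converts one sialic acid to another in mice, fell by 0.97 ± 0.03, and a second probe set of it by 1.23 ± 0.10. Of 5 interferon-inducible Ifi200 family genes 4 fell, Ifi213 (-0.91 ± 0.03), Ifi209 (-0.67 ± 0.03), Ifi205 (-0.33 ± 0.03) and Ifi203 (-0.32 ± 0.03), while Ifi204 differed by -0.01 and did not pass. Replication-dependent histones and linker histones went both ways, 6 higher and 6 lower of 21: H1f2 (1.21 ± 0.02), H2aw (0.99 ± 0.04) and H2bc4 (0.74 ± 0.03) rose, and H3c14 (-0.76 ± 0.04), H4c8 (-0.43 ± 0.06) and H3c1 (-0.40 ± 0.04) fell.

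Besides Mycn, 4 genes outside the 47 had another probe set at least 2-fold apart. Rabgap1l fell by 1.06 ± 0.04 with that probe set and differed by 0.00 ± 0.05 with the one that stood for the gene. For Rrm2b (1.06 and 1.14), H2aw (1.28) and Cmah (-1.23) both kinds of probe set pointed the same way. In these Rrm2b probe sets control samples 1 and 4 were the lowest, at -1.15 and -0.77 and at -1.27 and -0.74. Of 16243 probe sets without a single symbol 21 were at least 2-fold apart with groups not overlapping, 10 higher and 11 lower with LAP, with differences of up to 3.30 and down to -1.79.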
